A study of Homo sapiens with 73 samples.

Results

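The 43 DNA replication genes were followed across the chemotherapy and solvent lineages of CHLA-9, an established Ewing sarcoma line with an EWSR1-FLI1 fusion. The genes were taken by symbol from a list of replication factors that was chosen with earlier results of these data known, and all 43 were found among the 36233 genes of the expression table. All 43 also passed the filter of a mean value of at least 10, together with 14565 genes in all. By role they comprise 12 genes of origin licensing, 6 of helicase activation, 8 of the polymerases and primase, 7 of the sliding clamp, its loader and the flap endonuclease, 3 of the single-strand binding protein RPA, 4 of nucleotide supply, and 3 that encode E2F1, E2F2 and the fork protein claspin. Total RNA was sequenced from 49 libraries of 7 treated lineages (R1 to R7), 23 libraries of 3 DMSO lineages (R8 to R10) and 1 library of the untreated parental line. The treated lineages were exposed by turns to VDC (vincristine, doxorubicin and cyclophosphamide) and to EC (etoposide and cyclophosphamide), for 5 days each at the concentration with 70% effect, and were then regrown in drug-free medium before RNA was taken. The DMSO lineages carried the same fusion and were given the solvent alone over the same 10 time points, or 5 cycles, with VDC at odd and EC at even time points in the treated arm. Time point 2 had DMSO and time point 3 had treated libraries alone, and time point 7 had 1 DMSO library. All lineages derive from 1 cell line and have no patient or animal replicate behind them. For differences over all time points and for slopes, p-values measure the spread between these cultures. Tests at single time points take 72 libraries as independent, although a lineage gave several of them. Those of VDC against EC use the spread between libraries within a lineage. In bulk RNA, a smaller share of cells in S phase and less replication RNA per cell cannot be told apart.

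Replication begins with licensing, when the origin recognition complex (ORC), CDC6 and CDT1 load the ring of MCM proteins onto DNA, and geminin holds CDT1 in check once S phase has begun. CDC45 and the GINS complex then turn the MCM ring into the active helicase, polymerase alpha with primase starts each strand, and polymerases epsilon and delta extend the leading and lagging strands on the PCNA clamp that replication factor C (RFC) loads. Ribonucleotide reductase, thymidylate synthase and thymidine kinase supply the nucleotides, and E2F transcription factors drive many of these genes in late G1 phase. Doxorubicin and etoposide trap topoisomerase II on DNA, cyclophosphamide yields DNA crosslinks, and vincristine blocks microtubules.

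Promoters are shown because the genes moved together from library to library, as described below. The letters TTTCGCGC, TTTGGCGC, TTTCCCGC and TTTGCCGC, forms of the E2F element, were searched on both strands in the 250 bases before each transcription start listed by RefSeq (GRCh38.p14). Of the 37 replication genes with an entry, 14 held at least 1 match (37.8%), against 3.4% of 27305 genes, or 2.79% of 35116 windows. The CCAAT box was present in 24 of the 37 (64.9%), against 37.0% of all genes. The letters TTTGAA, the core of the CHR element of G2/M genes, were present in 1 of the 37, RRM1, against 16.1% of all genes. MCM4, MCM5, GINS4, POLD3, RPA2 and RPA3 had no entry. The sequences below are the last 190 bases before the start, 5′ to 3′, with E2F matches in capitals. E2F1 encodes one of the factors itself, MCM6 held the most matches, MCM7 and POLA2 fell in treated lineages, CDT1 rose, and RFC1, the steadiest of the genes, held none. Among the most variable genes, CLSPN, TK1, RRM2 and CDC6 held none either, and E2F2 held 1. Among the steadier genes, POLA1, MCM7, MCM3 and MCM6 held matches, while ORC2 and RFC4 did not. In MCM6, 2 pairs of matches on opposite strands overlap by 4 bases. A match is a description of the letters and was not tested as a binding site.
E2F1 (chr20:33686386-33686575, minus strand): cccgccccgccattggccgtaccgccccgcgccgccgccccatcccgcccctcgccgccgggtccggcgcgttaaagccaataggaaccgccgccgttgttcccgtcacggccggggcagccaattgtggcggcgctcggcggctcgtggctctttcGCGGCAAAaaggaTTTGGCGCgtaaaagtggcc
MCM6 (chr2:135876444-135876633, minus strand): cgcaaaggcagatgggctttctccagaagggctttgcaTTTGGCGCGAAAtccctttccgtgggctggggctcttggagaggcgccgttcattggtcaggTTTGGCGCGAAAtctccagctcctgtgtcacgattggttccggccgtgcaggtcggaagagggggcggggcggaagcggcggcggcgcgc
MCM7 (chr7:100101398-100101587, minus strand): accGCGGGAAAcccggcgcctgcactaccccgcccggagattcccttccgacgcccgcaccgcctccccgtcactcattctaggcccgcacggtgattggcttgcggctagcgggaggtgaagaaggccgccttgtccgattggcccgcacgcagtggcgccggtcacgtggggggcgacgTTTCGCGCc
POLA2 (chr11:65261772-65261961, plus strand): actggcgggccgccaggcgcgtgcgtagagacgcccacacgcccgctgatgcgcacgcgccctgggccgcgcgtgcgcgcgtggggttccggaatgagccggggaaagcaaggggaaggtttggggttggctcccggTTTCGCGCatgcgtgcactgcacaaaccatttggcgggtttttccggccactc
CDT1 (chr16:88803599-88803788, plus strand): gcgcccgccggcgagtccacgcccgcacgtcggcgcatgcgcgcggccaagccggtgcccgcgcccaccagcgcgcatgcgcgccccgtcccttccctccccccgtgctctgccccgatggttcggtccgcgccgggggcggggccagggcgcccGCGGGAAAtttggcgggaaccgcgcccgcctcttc
RFC1 (chr4:39366363-39366552, minus strand): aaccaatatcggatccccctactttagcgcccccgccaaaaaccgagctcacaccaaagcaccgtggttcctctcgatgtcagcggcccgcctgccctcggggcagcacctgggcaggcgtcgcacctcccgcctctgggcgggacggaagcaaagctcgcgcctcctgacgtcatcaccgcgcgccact

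The values were counts that the authors had quantile-normalized, so library depth is unknown, and the treated columns shared 1 total and the DMSO and parental columns another. Of the Ewing sarcoma markers, FLI1, NR0B1, PAX7, CCND1 and BCL11B were abundant, whereas CD99, a surface protein used to diagnose the tumour, reached at most 2.31 and NKX2-2 had a median of 26.6. Whether reads of CD99 were lost in counting was not tested, so its low value does not show that the cells lack it. Epithelial markers had a median under 1 for 5 of 6 genes and blood cell markers for 4 of 6. The 6 muscle and fibroblast markers summed to 1523 to 5072 in treated and 724 to 7289 in DMSO libraries. Several libraries stood apart. By the root mean square log2 distance from each gene's median over all libraries, the farthest were DMSO R9 at time point 9 (1.15), treated R2 at time point 10 (1.12), treated R1 at time point 9 (1.03), DMSO R9 at time point 8 (0.999) and DMSO R10 at time point 10 (0.911). The treated R1 library at time point 3 and the DMSO R9 library at time point 2 had the lowest summed replication gene values, 25798 and 24291, against medians of 56060 over the treated and 50492 over the DMSO libraries. The library labelled treated R1 at time point 3 lay nearer to a DMSO library (root mean square log2 difference 0.447 from R9 at time point 2) than to any treated library of time points 1 and 3 (at least 0.684). The library labelled DMSO R8 at time point 1 lay nearer to a treated library (0.356 from R6 at time point 1) than to any DMSO library of time points 1 and 2 (at least 0.594). DMSO R9 at time point 2 was likewise nearest to treated R1 at time point 3. The treated R1 library at time point 1 lay at least 0.553 from the 17 other libraries of time points 1 to 3. Values without some of these libraries stand beside the results that follow.

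Levels were compared between genes as the mean value per kilobase of merged exons (GENCODE v29, GRCh38). PCNA (ENSG00000132646, chromosome 20, 5114953 to 5126626, minus strand), the clamp that tethers polymerases to DNA, was the highest at 911 per kilobase. The helicase subunits MCM7 at 873, MCM3 at 817 and MCM6 at 613 followed, with MCM2 at 561, MCM4 at 550 and MCM5 at 380. The other licensing genes lay lower. CDT1, the MCM loader, had 235 per kilobase and GMNN, its inhibitor geminin, 172. CDC6, which works with ORC in loading, had 169, and the origin-binding subunits ORC2, ORC1 and ORC6 had 158, 138 and 55.4. Within the helicase activation group, GINS1 had 298, CDC45 209 and MCM10, which helps to fire the assembled helicase, 139 per kilobase. The other GINS subunits GINS2, GINS4 and GINS3 had 65.4, 52.2 and 30.2, the last being the lowest of the 43. The catalytic subunits POLD1 (polymerase delta), POLE (polymerase epsilon) and POLA1 (polymerase alpha) had 305, 168 and 167 per kilobase. Their accessory subunits POLD3, POLE2 and POLA2 had 162, 75.0 and 39.1, and the primase subunits PRIM1 and PRIM2 had 90.0 and 73.3.

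Among the clamp loader subunits, RFC2 stood at 435 per kilobase, RFC1 at 251, RFC3 at 234, RFC4 at 205 and RFC5 at 163. FEN1, the nuclease that trims flaps between Okazaki fragments, had 438. The RPA subunits, which coat single-stranded DNA, had 426 for RPA2, 341 for RPA1 and 64.1 for RPA3. Both ribonucleotide reductase subunits were high, RRM2 at 602 and RRM1 at 574, with thymidine kinase TK1 at 514 and thymidylate synthase TYMS at 298. E2F1 had 373, E2F2 145 and CLSPN, which encodes the checkpoint mediator claspin, 187. These levels rest on counts whose strand setting is not given in the sources used here. Of the 43 genes, 19 share exon bases with another gene, 15 of them with a gene on the opposite strand. POLA2 shares 2012 exon bases with the same-strand gene AP000944.2, RRM2 shares 1077 with AC007240.1, and TYMS shares 967 with ENOSF1 on the other strand. PCNA, RFC3, RFC5, FEN1, RPA2, RRM2 and TYMS also have named pseudogenes, so reads of these genes could have been split or lost.

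The genes differed in how much they varied between libraries. The standard deviation of the log2 value over the 72 culture libraries was lowest for RFC1 (0.10), the large subunit of the clamp loader, and for ORC2 (0.15). RFC1 spanned 1457 to 1935 in treated libraries, with a median of 1703, and 1484 to 1840 in DMSO libraries, with a median of 1635. At the other end stood CLSPN (0.62), TK1 (0.61), RRM2 (0.59), E2F2 (0.52) and CDC6 (0.52). RRM2 spanned 648 to 5795 in treated libraries, with a median of 3017, and 413 to 5470 in DMSO libraries, with a median of 3144. The median standard deviation was 0.32 over the 43 genes and also 0.32 over all 14565, and 22 of the 43 were above that of all genes. Without treated R1 at time point 3 and DMSO R9 at time point 2, the highest was 0.49 and the median over the 43 genes 0.27, against 0.31 over all genes. The ranges of the arms overlapped for both genes.

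Within a library the replication genes moved as a block. In 43 of the 72 culture libraries, at least 35 of the 43 genes lay on the same side of their own means. In 24 of these the genes lay above their means (19 treated and 5 DMSO libraries), and in 19 they lay below (14 treated and 5 DMSO). The median library had 83.7% of the replication genes on its majority side. Over all 14565 genes the majority side held 52.6% in the median library and 62.3% at most, and no library reached the 81.4% that 35 of 43 stands for. Quantile normalization gives libraries the same distribution of values and so keeps the share over all genes near even in advance. That share is a description and no test of the block. The median deviation from the genes' own means ran from -0.97 to 0.47 log2 in treated libraries and from -1.05 to 0.45 in DMSO libraries. Treated lineage R5 reached its maximum of 0.47 at time point 5, treated R1 had 0.46 at time point 6, and the highest DMSO library was R10 at time point 5 (0.45). RFC1 and ORC2 departed from the block. In treated R1 at time point 3, where 42 of the 43 genes lay below their means, ORC2 lay 0.13 above its own and RFC1 0.016 below.

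Other markers varied between libraries too, and their part in the block was not tested. Of the 20 G2/M and mitosis genes fixed as a list, at least 15 lay above their means in 19 of the 24 high libraries and below them in 14 of the 19 low ones. The 13 mitochondrially encoded genes, often read as a sign of RNA quality, were high in both lowest libraries, by a median of 2.92 log2 in treated R1 at time point 3 and 1.85 in DMSO R9 at time point 2. DMSO R10 at time point 2 had a median of 2.15 for them and a replication gene deviation of -0.17. At time point 1 they were at 1.54 in DMSO R8 and at 1.00 to 1.27 in treated R2, R3, R4, R6 and R7. Replication gene deviations in those libraries ran from 0.088 to 0.17. The value of CDKN1A, the CDK inhibitor p21, ran from 50.8 to 4992 in treated and from 53.01 to 10116 in DMSO libraries. It was 50.8 in treated R1 at time point 3 and 92.7 in DMSO R9 at time point 2, where the replication genes were lowest, and 10116 in DMSO R9 at time point 8, where their deviation was -0.14. Other early DMSO libraries were as low in CDKN1A, R9 (53.01) and R10 (71.2) at time point 1 and R8 (62.1) and R10 (75.2) at time point 2. Their replication gene deviations ran only from -0.17 to -0.062.

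**Figure D1:**
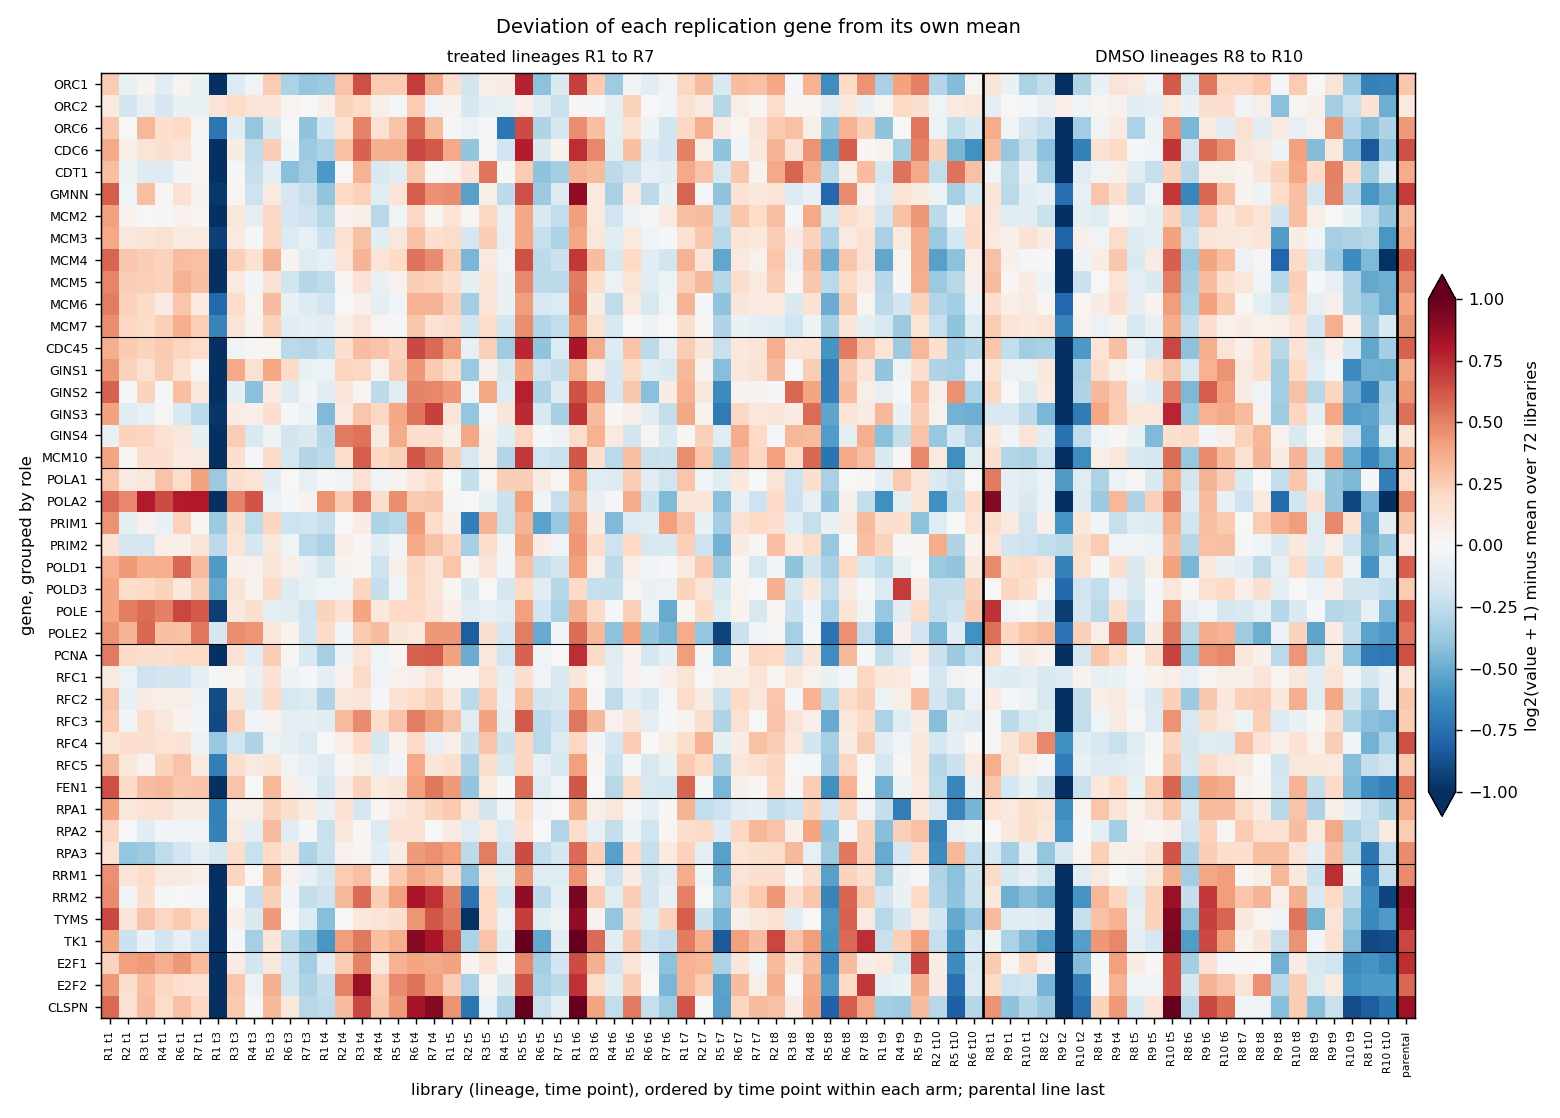
Log2 deviation of each replication gene (rows, grouped by role) from its own mean over 72 culture libraries, in treated libraries (left), DMSO libraries (middle) and the parental library (right), each ordered by time point; red is above and blue below the mean. Whole columns share a colour, with treated R1 at time point 3 and DMSO R9 at time point 2 the darkest blue, while the RFC1 and ORC2 rows stay pale.

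The level of the block varied by lineage over time. Among treated lineages the median deviation at time point 1 ran from 0.088 to 0.40, with a median of 0.15 over 6 libraries. DMSO lineages had 0.17 in R8, -0.062 in R9 and -0.088 in R10 there. At time point 10 it was -0.24 in R2, -0.30 in R5 and -0.071 in R6 of the treated arm, against -0.51 in R8 and -0.44 in R10 of the DMSO arm. All 5 libraries of that time point were thus below zero, and the 3 treated ones lay above both DMSO ones. Between these ends single lineages went their own way. R5 held 0.47 at time point 5, -0.34 at time point 7 and -0.50 at time point 8, while the other treated lineages lay between 0.11 and 0.29 at time point 7. The parental library stood at 0.45, and all 43 genes were above their culture means in it. Its RRM2 value was 5589, its MCM7 value 5170 and its E2F1 value 1495. This is 1 library with no replicate check.

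**Figure D2:**
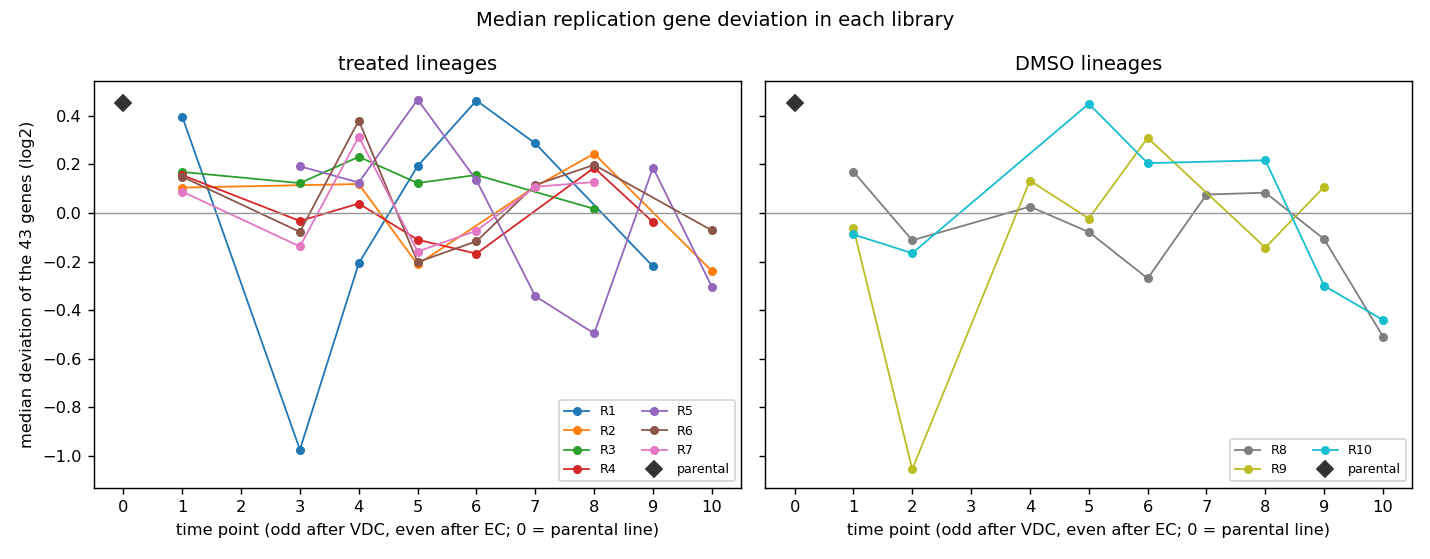
Median log2 deviation of the 43 replication genes from their own means in each library against time point, 1 line per lineage, treated lineages left and DMSO lineages right; the diamond is the parental library at time point 0. Lines cross throughout, and the lowest points are treated R1 at time point 3 (-0.97) and DMSO R9 at time point 2 (-1.05).

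The first comparison asked whether repeated chemotherapy left replication genes higher or lower than the solvent alone over all time points. No replication gene passed the threshold, an adjusted p under 0.05 in limma with Benjamini-Hochberg adjustment, and neither did any of the 14565 genes (0%). At an unadjusted p under 0.05 stood 1965 of all genes and 6 of the 43, of which 5 were higher and 1 lower in treated lineages. The differences of the 43 genes were small, from -0.11 to 0.20 log2, with a median of 0.058 against -0.0036 over all genes, and 33 were positive. Their 95% intervals all lay between -0.25 and 0.36 log2.

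The smallest p-value of the 43 belonged to POLA2 (chromosome 11, 65261762 to 65305589, plus strand), the regulatory subunit that links polymerase alpha to the fork. Its values ran from 93.5 to 374 in treated libraries, with a median of 220, and from 98.4 to 405 in DMSO libraries, with a median of 195. Adjusted for time point, the treated lineages averaged 7.75 ± 0.10 (SD, n = 7) and the DMSO lineages 7.55 ± 0.13 (SD, n = 3) on the log2 scale. The lineages overlapped, since treated R1 and R7 at 7.59 and 7.63 lay below DMSO R8 at 7.71. The difference was 0.20 ± 0.075 (SE, log2; adjusted p = 0.319, limma). RPA1 (chromosome 17, 1829702 to 1900082, plus strand), the large RPA subunit, was the 1 gene lower in treated lineages at an unadjusted p under 0.05. It ran from 1146 to 2444 in treated libraries, with a median of 1912, and from 1200 to 2294 in DMSO libraries, with a median of 1978. Its difference was -0.11 ± 0.044 (SE, log2; adjusted p = 0.328, limma), and treated R1 at 10.83 overlapped DMSO R9 at 10.79. POLE (chromosome 12, 132623753 to 132687365, minus strand), the catalytic subunit of the leading-strand polymerase, differed by 0.14 ± 0.059 (adjusted p = 0.347, limma), and treated R7 at 11.28 lay below DMSO R8 at 11.36 and R10 at 11.30.

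The genes named in every comparison as common readouts of S phase did not pass either. MCM2 differed by 0.079 ± 0.048 log2, CDC6 by 0.084 ± 0.074, PCNA by -0.015 ± 0.053, RRM2 by 0.040 ± 0.074 and E2F1 by 0.18 ± 0.079 (SE, n = 7 treated and 3 DMSO lineages). Their adjusted p-values in limma with Benjamini-Hochberg adjustment lay between 0.361 and 0.921. No replication gene had all 7 treated lineages above or below all 3 DMSO lineages, an order seen in 1.08% of all genes above and 1.93% below. Without treated R1 at time point 3 and DMSO R8 at time point 1, 0 of the 43 passed, the median was 0.059, and POLA2 differed by 0.22 (adjusted p = 0.232, limma).

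**Figure D3:**
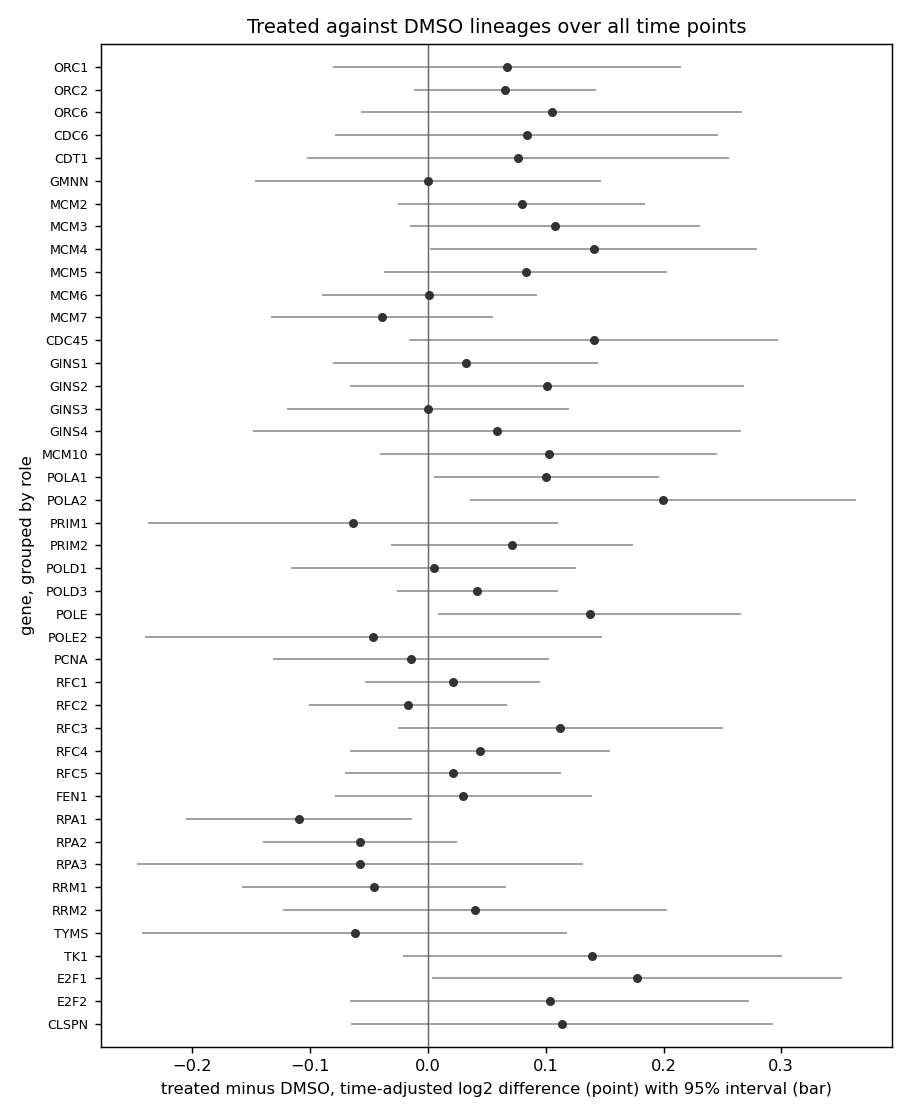
Difference of treated minus DMSO lineages over all time points (log2, adjusted for time point) for each replication gene, with 95% intervals as bars. The intervals are narrow and mostly cross 0, from RPA1 at -0.11 to POLA2 at 0.20.

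The second comparison asked how the genes changed over the sampled time points within each arm, as slopes per time point. The lineages covered unlike spans, and each slope counted equally. Treated R5 had no library at time point 1, R3 and R7 ended at time point 8, and R1, R4 and DMSO R9 at 9. Treated R2 and R6 and DMSO R8 and R10 had libraries at both time points 1 and 10. In treated lineages 7 replication genes fell and 1 rose, against 3326 falling (22.8%) and 2367 rising (16.3%) among all genes. The members' shares were 16.3% falling and 2.33% rising. Of the 7 that fell, 4 belong to the replicative polymerases, 2 to the MCM ring and 1 to RPA. CDT1 rose. The median slope of the 43 genes was -0.012 log2 per time point, against -0.0076 over all genes.

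POLA2 had the steepest fall. At time point 1 its treated values ran from 299 to 374, with a median of 354, and DMSO values were 405 in R8, 200 in R9 and 194 in R10. At time point 10 it was at 140 in R2, 181 in R5 and 242 in R6 of the treated arm, against 155 in R8 and 98.4 in R10 of the DMSO arm. At the first time point DMSO R8 lay above every treated library and the other 2 DMSO libraries lay below every treated one. The treated slope was -0.098 ± 0.016 log2 per time point (SE, n = 7 lineages; adjusted p = 0.00187, limma), negative in 7 of 7 lineages, from -0.16 to -0.053. POLE2 (chromosome 14, 49643555 to 49688422, minus strand), the second subunit of polymerase epsilon, had treated values from 263 to 319 at time point 1, with a median of 282. Its DMSO values there were 313, 249 and 260. At time point 10 it was at 156, 198 and 140 in the treated arm and at 147 and 143 in the DMSO arm, so both arms fell below their first values. The treated slope was -0.079 ± 0.016 (SE; adjusted p = 0.00466, limma), negative in 7 of 7 lineages.

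POLE fell by 0.058 ± 0.011 log2 per time point in treated lineages (SE; adjusted p = 0.00339, limma). Its values at time point 1 ran from 3586 to 4338 in the treated arm, with a median of 3945, against 4508, 2652 and 2690 in DMSO R8, R9 and R10. At time point 10 it was at 2309, 2356 and 3271 in the treated arm and at 2585 and 1997 in the DMSO arm. As for POLA2, DMSO R8 at time point 1 sat with or above the treated libraries and apart from the other DMSO libraries. POLD1 (chromosome 19, 50384204 to 50418016, plus strand), the catalytic subunit of polymerase delta, fell by 0.055 ± 0.013 (SE; adjusted p = 0.00937, limma). It ran from 1831 to 2206 in treated libraries at time point 1, with a median of 1896, against 2050, 1652 and 1696 in DMSO libraries, and reached 1144, 1124 and 1594 in treated libraries against 985 and 1345 in DMSO libraries at time point 10. The other subunits of the group did not pass: POLA1 had a slope of -0.022 ± 0.0095 (adjusted p = 0.0806, limma), while POLD3, PRIM1 and PRIM2 stayed within -0.016 to 0.014.

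RPA1 fell by 0.044 ± 0.011 log2 per time point (SE; adjusted p = 0.0089, limma), whereas RPA2 and RPA3 did not pass. Its treated values were 1947 to 2444 at time point 1, with a median of 2015, and 1657, 1169 and 1335 at time point 10, against 2033, 1978 and 2086 and then 1583 and 1502 in DMSO libraries. The treated libraries at the end included values below both DMSO libraries. MCM7 (chromosome 7, 100092728 to 100101940, minus strand) fell by 0.043 ± 0.012 (SE; adjusted p = 0.0172, limma). Its treated values were 4286 to 5218 at time point 1, with a median of 4460, and 3221, 2856 and 3443 at time point 10, against 4497, 4158 and 4071 and then 2943 and 3402 in DMSO libraries. MCM4 fell by 0.037 ± 0.013 (SE; adjusted p = 0.0478, limma) and is named beyond the naming rule, after its value was seen. MCM6 was also negative in 7 of 7 lineages, at -0.029 ± 0.012 (adjusted p = 0.0724, limma), so that 8 of the 43 genes were negative in all 7 treated lineages, against 14.7% of all genes. The remaining MCM genes differed in sign, MCM2 at 0.018 ± 0.011 (adjusted p = 0.206, limma), with MCM3 at -0.0063 and MCM5 at -0.015.

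CDT1 (chromosome 16, 88803213 to 88809258, plus strand) rose by 0.056 ± 0.017 log2 per time point in treated lineages (SE; adjusted p = 0.0249, limma), positive in 7 of 7 lineages, an order seen in 10.9% of all genes. Its treated values were 698 to 942 at time point 1, with a median of 742, and 641, 1111 and 936 at time point 10, against 744, 640 and 725 and then 590 and 698 in DMSO libraries. Values at time point 9 were 677, 1113 and 991 in treated R1, R4 and R5, against 866, 1082 and 872 in DMSO R8, R9 and R10. The arms overlapped at both times. CDC6, its partner in licensing, had a slope of -0.00069 ± 0.027, RRM2 of 0.0012 ± 0.029, PCNA of -0.027 ± 0.017 and E2F1 of -0.016 ± 0.021 (adjusted p between 0.235 and 0.986, limma).

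**Figure D4:**
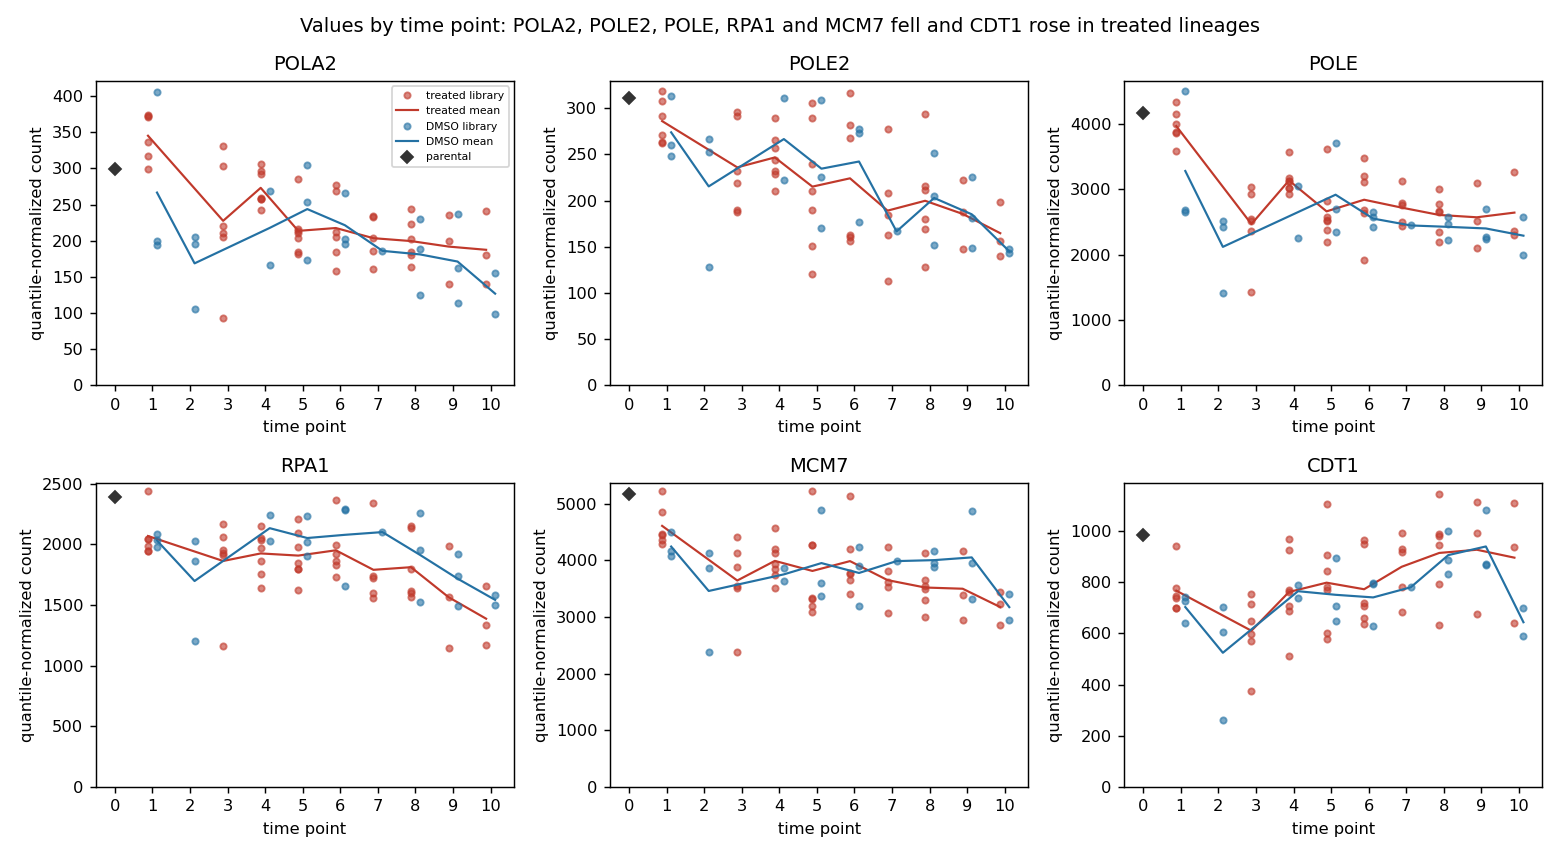
Quantile-normalized count (linear axis from 0) of POLA2, POLE2, POLE, RPA1, MCM7 and CDT1 in each treated library (red) and DMSO library (blue) against time point, with lines through the means of each arm and the parental library as a diamond at time point 0. The treated means of the first 5 genes are highest at time point 1, where DMSO R8 lies among or above them for POLA2 and POLE, and CDT1 runs the other way.

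These slopes leaned on the first time point and on a few libraries. Without time point 1, 0 of the 43 genes passed in treated lineages, while 1183 of all genes did, and POLA2 and POLE had slopes of -0.069 and -0.016. When treated R1 at time point 1 alone was left out, 3 genes fell, POLA2 (-0.086), POLE2 (-0.078) and POLE (-0.048), and CDT1 rose (0.073). Among all genes 5256 passed in that setting, in either direction. POLD1, RPA1 and MCM7 then had adjusted p-values of 0.0514, 0.104 and 0.167 in limma, and the median slope of the 43 genes was 0.0042. Without treated R1 at time point 3 and DMSO R9 at time point 2, 15 genes fell, among them PCNA (-0.039), FEN1 (-0.056), TYMS (-0.046) and E2F1 (-0.031), genes chosen here after their values were seen. The count over all 14565 genes was 5657 there, in either direction, against 5693 (39.1%) with all libraries. The share of all genes that fell in that setting was not counted separately. The 15 are thus not shown to exceed it. Without treated R1 at time point 3 and DMSO R8 at time point 1, 10 genes fell and none rose, while 5622 of all genes passed in either direction. CDT1 then had a slope of 0.048 with an adjusted p of 0.0531 in limma. With lineage as a replicate block in a fit of 72 libraries, the call of MCM4 was lost (adjusted p = 0.159), while in DMSO lineages CDT1 rose and POLE2 fell. In DMSO lineages 5619 of all genes passed in that fit, in either direction. The call of CDT1 was also lost without lineage R3 (adjusted p = 0.0755) or R4 (adjusted p = 0.0661). Without R5 TK1 rose beside it, and 6508 of all genes passed in either direction. Other markers fell or rose over the same time points, and their part in these slopes was not tested. All 13 mitochondrially encoded genes fell in treated lineages, with a median slope of -0.14, as 13 of 13 did in DMSO lineages (-0.22; ATP8 did not pass without the 4 late DMSO libraries). The Ewing sarcoma markers LIPI, STEAP1 and BCL11B fell in both arms, and of the 5 muscle and fibroblast markers that passed the filter DES and ACTA2 rose in treated and ACTA2 in DMSO lineages.

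In DMSO lineages 0 of the 43 replication genes passed in limma with Benjamini-Hochberg adjustment, against 890 rising (6.11%) and 895 falling (6.14%) among all genes. At an unadjusted p under 0.05, 1 of the 43 rose and 3 fell, against 4888 of all genes in either direction. CDT1 had a slope of 0.064 ± 0.026 (adjusted p = 0.116), MCM3 of -0.033 ± 0.014 (0.133), POLA2 of -0.058 ± 0.025 (0.134) and POLE2 of -0.057 ± 0.025 (0.138) log2 per time point (SE, n = 3). CDT1 and RFC1 were positive in 3 of 3 DMSO lineages (23.3% of all genes were), and MCM3 and POLA2 negative (32.3%). MCM2 had a slope of 0.019 ± 0.017, CDC6 of 0.039 ± 0.042, PCNA of -0.016 ± 0.027, RRM2 of 0.070 ± 0.045 and E2F1 of -0.021 ± 0.032. The lineages themselves were split. In R9 only 3 of the 43 genes had a falling slope, against 39 in R8 and 35 in R10, and R9 held the low library of time point 2. Without that library and treated R1 at time point 3, 4 genes fell in DMSO lineages, while 1897 of all genes passed in either direction. POLA2 was then at -0.082 and E2F1 at -0.061. Without 4 late DMSO libraries (R9 at time points 8 and 9, R10 at 9 and 10), by contrast, POLA2 had a slope of 0.042, E2F1 of 0.058 and MCM3 of 0.021. None of the 43 then fell, CDT1 rose (0.083, adjusted p = 0.0477, limma), and the median slope was 0.058, against 0.012 with all libraries. Over all genes 2769 passed in that setting, in either direction.

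The next comparison set the slopes of the arms against each other. For the slope difference, treated minus DMSO, 0 of the 43 and 0 of 14565 genes (0%) passed in limma with Benjamini-Hochberg adjustment, and 0 of the 43 and 1373 of all genes stood at an unadjusted p under 0.05. The median over the 43 genes was -0.018, with 35 negative, against 0.0013 over all genes. It was -0.074 without the 4 late DMSO libraries and 0.016 without DMSO R9. MCM7 came first among the 43 (-0.044 ± 0.022 log2 per time point), before POLE (-0.037 ± 0.020) and ORC2 (0.028 ± 0.017), with adjusted p from 0.55 to 0.605. POLA2 differed by -0.040, with a 95% interval from -0.11 to 0.026, and CDT1 by -0.0082, with an interval from -0.077 to 0.061. Among the fixed readouts the difference was -0.0013 for MCM2, -0.040 for CDC6, -0.011 for PCNA, -0.069 for RRM2 and 0.0047 for E2F1. Intervals of this width leave room for differences as large as the treated slopes, so the falls and the rise are not shown to belong to the treated arm.

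**Figure D5:**
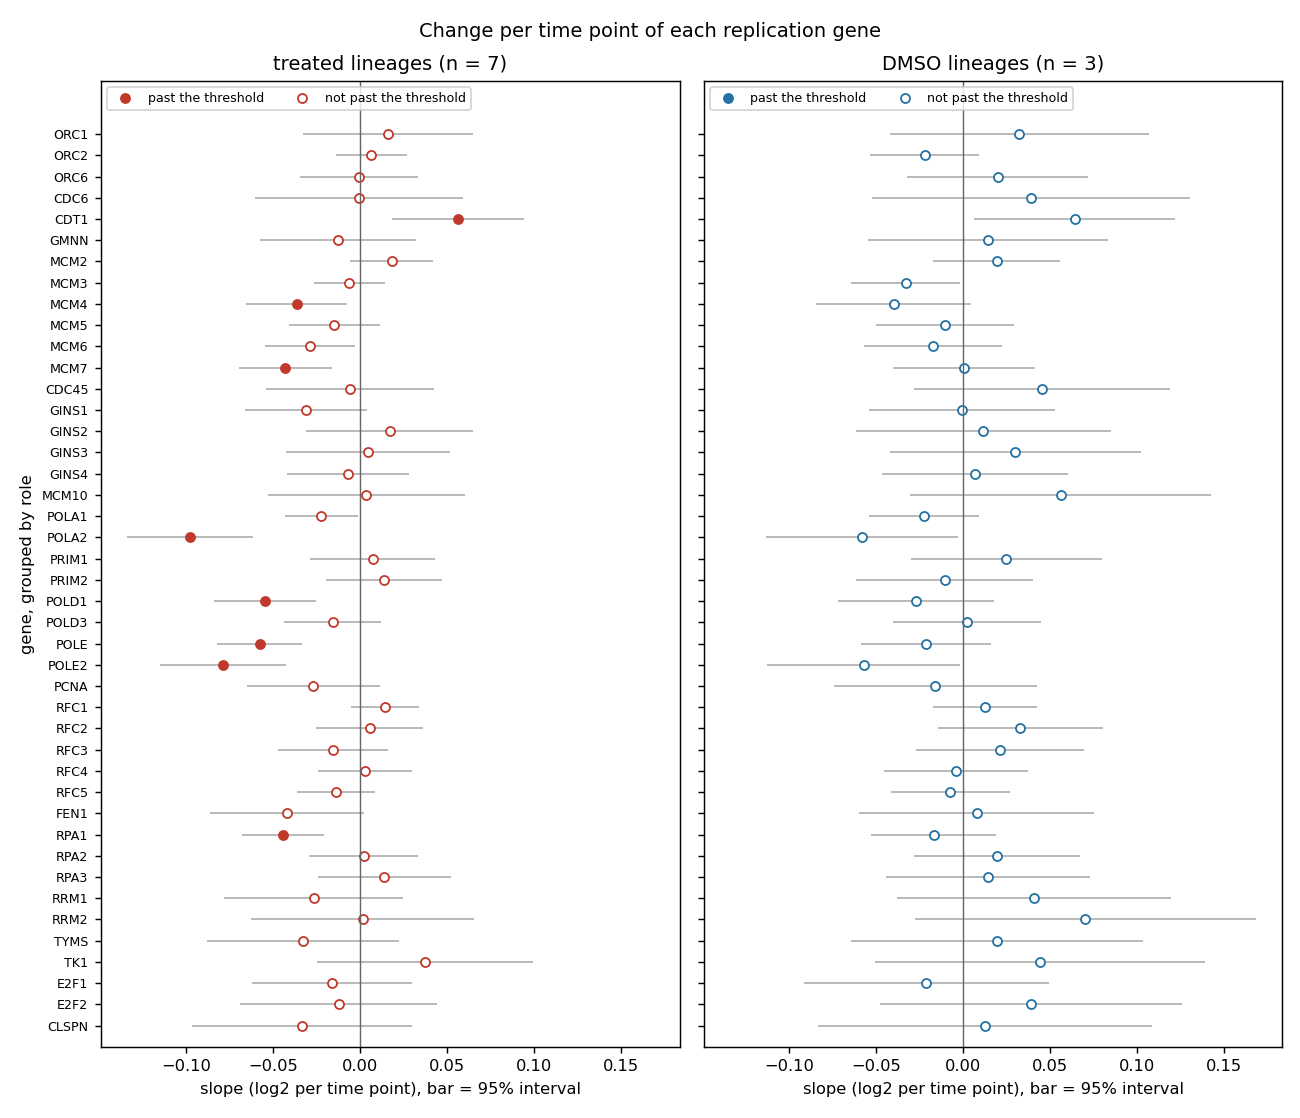
Slope of each replication gene (log2 per time point, with 95% intervals) in treated lineages (left, n = 7) and DMSO lineages (right, n = 3), with filled points past the threshold. Filled points are CDT1 to the right and POLA2, POLE2, POLE, POLD1, RPA1, MCM7 and MCM4 to the left in treated lineages, and none are filled in DMSO lineages.

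At single time points the arms were compared in 1 fit of 72 libraries. No replication gene passed in limma at time points 1, 4, 5, 6, 7, 8, 9 or 10. Among all genes 0 passed at time points 1 and 4 to 8, 194 at time point 9 (1.33%), of which 79 were higher (0.542%) and 115 lower (0.79%) in treated lineages, and 9 at time point 10 (0.0618%), of which 5 were higher (0.0343%) and 4 lower (0.0275%). At an unadjusted p under 0.05 stood between 182 (time point 7) and 1475 (time point 8) of all genes at time points 1 and 4 to 8, with none of the 43 among them. At time point 9 there were 2171, with 2 of the 43, and at time point 10 there were 1713, with 1 of the 43. The median difference of the 43 genes was 0.12 log2 at time point 1, 0.072 at 4, -0.11 at 5, -0.043 at 6, -0.0042 at 7, -0.0034 at 8, 0.10 at 9 and 0.28 at 10. Single lineages moved these medians. With each lineage left out in turn they ran from 0.097 to 0.22 at time point 1, 0.034 to 0.13 at 4, -0.22 to 0.039 at 5, -0.22 to 0.087 at 6, -0.054 to 0.090 at 7, -0.073 to 0.11 at 8, -0.0013 to 0.20 at 9 and 0.21 to 0.31 at 10. At time point 1 the ends were 0.097 without treated R1 and 0.22 without DMSO R8. At time point 10, 41 of the 43 differences were positive, but the median standard error was 0.27 there, and the medians over all genes lay between -0.024 and 0.019. Across the 8 time points the difference ran from -0.022 to 0.29 for MCM2, from -0.16 to 0.34 for CDC6, from -0.24 to 0.43 for PCNA, from -0.28 to 0.47 for RRM2 and from -0.18 to 0.53 for E2F1.

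At time point 1, POLE differed by 0.32 ± 0.18 log2 and POLA2 by 0.45 ± 0.26 (SE, n = 6 treated and 3 DMSO libraries; adjusted p = 1, limma), and FEN1 by 0.33 ± 0.26. Without the libraries labelled DMSO R8 at time point 1 and treated R1 at time point 3, these differences were 0.57, 0.80 and 0.46, with adjusted p-values in limma of 0.149, 0.155 and 0.499, and 20 of all genes passed. At this time point CDKN1A lay between 510 and 1387 in treated libraries, against 1229 in DMSO R8, 53.01 in DMSO R9 and 71.2 in DMSO R10. At time point 9 the origin-binding subunit ORC2 differed by 0.30 ± 0.11 (adjusted p = 0.168, limma) and POLA1 by 0.40 ± 0.17 (adjusted p = 0.215, limma). Without DMSO lineage R8 both passed at time point 9, ORC2 at 0.41 (adjusted p = 0.0132, limma) and POLA1 at 0.52 (adjusted p = 0.0362, limma). So did 1325 of all genes, in either direction. ORC2 at time point 10 was then at 0.54. These values rested on DMSO libraries that stood apart: R9 and R10 remained at time point 9, and R10 alone at time point 10, so no test value is given there. Without the 4 late DMSO libraries, ORC2 was at 0.077 and POLA1 at 0.18 at time point 9 (adjusted p = 0.96 and 0.946, limma), and ORC2 was at -0.094 at time point 10. Without DMSO R9, ORC2 was at 0.21 at time point 9 (adjusted p = 0.752, limma). At time point 10 the primase subunit PRIM2 had 438, 274 and 346 in treated R2, R5 and R6, against 241 and 256 in DMSO R8 and R10. The treated values all lay above the DMSO ones, and the difference was 0.48 ± 0.21 (adjusted p = 0.33, limma). PCNA had 1118, 1011 and 1095 in treated libraries there, against 800 and 792 in DMSO libraries, a difference of 0.43 ± 0.32 (adjusted p = 0.642, limma). RRM2 had 2454, 2278 and 2573 against 1938 and 1589 (0.47 ± 0.45; adjusted p = 0.733, limma). The libraries of this time point did not overlap for these genes, but with the spread across all 72 libraries none of the differences passed. Median deviations of the whole block did not overlap there either (-0.30 to -0.071 in treated against -0.51 and -0.44 in DMSO libraries). How many of all genes had such an order was not counted, so it is not shown to be particular to the replication genes. These genes move together within a library, so the orders of single genes and of the block are not separate observations.

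The last comparison set time points after VDC (odd) against those after EC (even). In treated lineages 0 of the 43 genes passed and 36 of the 43 were lower after VDC, with a median of -0.073 log2. In DMSO lineages, which received neither, 42 of the 43 were higher at odd time points, with a median of 0.17, and 0 passed. The difference between arms had a median of -0.23, with 41 of 43 negative, and 0 of the 43 passed in limma with Benjamini-Hochberg adjustment. Medians over all genes were 0.00092 in treated lineages, 0.00080 in DMSO lineages and 0.00080 for the difference. Because the 43 genes move together within a library, these counts of signs are not 43 separate observations. Among all genes 0 passed (0%) in any of these comparisons, while 2118 in treated lineages, 558 in DMSO lineages and 685 for the difference stood at an unadjusted p under 0.05. Of the 43, none in treated lineages, 3 in DMSO lineages and 4 for the difference did. ORC6, the smallest ORC subunit, had the smallest p for the difference, at -0.43 ± 0.16 (adjusted p = 0.914, limma). It was at -0.15 ± 0.095 in treated and 0.29 ± 0.13 in DMSO lineages. The clamp loader subunits RFC4 (-0.23 ± 0.11) and RFC3 (-0.32 ± 0.15) followed. RRM2 differed by -0.57 ± 0.31, CDC6 by -0.44 ± 0.28, E2F1 by -0.37 ± 0.24, PCNA by -0.24 ± 0.21 and MCM2 by -0.11 ± 0.15. In treated lineages alone RFC3 was at -0.17 ± 0.085, RRM2 at -0.25 ± 0.16, CDC6 at -0.23 ± 0.15, PCNA at -0.066, E2F1 at -0.071 and MCM2 at 0.055. The lowest libraries fell on opposite sides here, treated R1 at the odd time point 3 and DMSO R9 at the even time point 2. Without them the median was -0.055 in treated lineages, 0.044 in DMSO lineages and -0.094 for the difference, and 0 of the 43 passed. The difference was then -0.34 for ORC6, -0.17 for RFC4, -0.20 for RFC3, -0.21 for CDC6 and -0.0057 for MCM2. G2/M genes had the same signs with all libraries, with 20 of 20 lower after VDC in treated lineages (median -0.14) and 19 of 20 higher at odd time points in DMSO lineages (0.16), whereas 13 of 13 mitochondrially encoded genes had the opposite signs (0.10 and -0.43). Their part in the result was not tested. The samples after VDC and after EC come from other time points, so the course and the time of sampling cannot be told apart within an arm.

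Genes of the same processes outside the 43 were taken as lists chosen with earlier results of these data known. In treated slopes, 11 of 27 other origin and fork genes fell and 1 rose, with a median of -0.026 log2 per time point. The fallers included POLD4 (-0.15 ± 0.042), the small subunit of polymerase delta, RNASEH2B (-0.089 ± 0.018), a subunit of the enzyme that removes ribonucleotides from DNA, and CHTF18 (-0.083 ± 0.017), of an alternative clamp loader. POLE3, a histone-fold subunit of polymerase epsilon, rose by 0.040 ± 0.011. Adjusted p-values of these 4 lay between 0.00388 and 0.0185 (limma, Benjamini-Hochberg). In DMSO slopes RNASEH2B and CDC7, the kinase that fires origins, fell and POLE3 rose. Of 15 other nucleotide supply genes, 5 fell and 2 rose in treated lineages. SAMHD1, which degrades deoxynucleotides, rose by 0.061 ± 0.018 (adjusted p = 0.0232, limma), while DTYMK, the thymidylate kinase, fell by 0.046 ± 0.013 (adjusted p = 0.0175, limma). RRM2B, the p53-inducible reductase subunit, rose in DMSO lineages by 0.093 ± 0.024 (adjusted p = 0.0339, limma).

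Among 20 other E2F and RB pathway genes, 3 fell and 1 rose in treated lineages. CDK6, a kinase that acts on RB, had the largest slope of the list, 0.38 ± 0.049 log2 per time point in treated and 0.48 ± 0.076 in DMSO lineages (adjusted p = 0.000742 and 0.00811, limma), while E2F8, a repressor, fell by 0.091 ± 0.027 in treated lineages. Of 14 checkpoint genes, 5 fell and 1 rose in treated lineages, the riser being CDC25B, a phosphatase that activates CDKs, at 0.047 ± 0.010, with 0.087 ± 0.015 in DMSO lineages. SMARCAL1, which remodels stalled forks, fell in both arms. None of 8 genes of chromatin assembly at forks passed in either arm. Of 20 G2/M genes, NUSAP1, a spindle protein, fell in treated lineages (-0.13 ± 0.027) and AURKA, a mitotic kinase, rose in DMSO lineages (0.16 ± 0.041). Of 10 CDK inhibitor and p53 response genes that passed the filter, SESN1 and TP53I3 fell in treated lineages, whereas CDKN1A (0.58 ± 0.16) and MDM2 (0.068 ± 0.019) rose in DMSO lineages. CDKN1A was at 10116 and 9436 in DMSO R9 at time points 8 and 9 and at 6010 in DMSO R10 at time point 10, against 235 in DMSO R8 at time point 10. Without the 4 late DMSO libraries its slope was 0.53 (adjusted p = 0.0374, limma), while MDM2 at 0.034 (adjusted p = 0.147), RRM2B at 0.049 (0.103) and CDC7 at -0.044 (0.18) did not pass. Over all these lists and the marker lists, 50 genes passed in treated and 27 in DMSO slopes. Without time point 1, 4 and 0 of them did, and without treated R1 at time point 1, 45 and 4 did. Over all time points, and for the slope difference, no gene of these lists passed. The median difference over all time points, treated minus DMSO, was 0.024 for the other origin and fork genes, 0.067 for G2/M genes and -0.13 for CDK inhibitors and p53 response genes.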

How the data were processed

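RNA sequencing libraries of CHLA-9 cultures (49 treated, 23 DMSO and 1 parental) were used. The deposited values are gene counts that the authors had quantile-normalized, a signal without known depth, per the file headers and the labels; alignment was with STAR, per the labels' protocols. STAR, featureCounts and GRCh38 are named in the submitters' processing notes, and versions are not given in the sources used here. The treated columns shared a total of 13583520 and the DMSO and parental columns one of 13582508, so the arms appear to have been normalized separately. Each column was matched to its sample by title, and 0 columns were left unused.

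Values were taken as log2(value + 1), and 14565 genes with a mean of at least 10 were tested in limma 3.58.1 (R 4.3.3, with a trend on mean expression; tables were read with data.table, version 1.17.8) with Benjamini-Hochberg adjustment over all of them and a threshold of 0.05. Differences over all time points and slopes were fitted on lineage values (7 treated, 3 DMSO), single time points on 72 libraries, and VDC against EC on the 49 treated libraries or, for DMSO and the difference, on 72, with lineage as a block and a linear time term. Fold changes of low genes are understated on this scale. Lineage numbers mark the same culture over time, per the labels; deviations of same-lineage libraries correlated at a mean r of 0.0814 over 219 pairs, against -0.0152 over 1050 pairs of other lineages. Named genes were up to 6 past the threshold with the largest change in each direction, otherwise the 3 with the smallest p, and always MCM2, CDC6, PCNA, RRM2 and E2F1 (single time points are mostly summarised); from each other list, up to 3 past the threshold, otherwise 1. The members and lists were chosen with earlier results of these data known. On simulated data with 200 of 14565 genes changed, the overall comparison recovered 46.5% of differences of 0.5 log2 and 78.5% of differences of 1. For slopes of 0.1 per time point, 57.5% were recovered in treated lineages, 34.5% in DMSO lineages and 18% for the slope difference. Whether these shares hold for the libraries themselves, where replication genes moved together and 5693 genes passed in treated slopes, was not tested. Alternatives were a pseudocount of 10, no filter, joint quantile normalization, other fits with or without a replicate block, and leaving out libraries, lineages or time point 1. Promoters are from RefSeq (GRCh38.p14) and gene positions from GENCODE v29 (GRCh38). Python 3.11.15 and matplotlib 3.10.9 drew the figures.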

Additional observations from a re-analysis of the deposited data

Results flagged for a closer look

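Within groups of 4 to 10 libraries or lineages, the value farthest from the others was marked where its gap passed Dixon's 95% critical value. Of 143 groups, 26 had such a value, and chance marks about 1 in 20 groups. Many of the groups share a library, so the marks are not independent.

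The treated R1 library accounted for most of them. At time point 1 it stood above the other 5 treated libraries in the median deviation of the replication genes (0.40 log2) and in MCM2 (3603), PCNA (1863), RRM2 (4178), RPA1 (2444) and CDT1 (942). At time point 3 it stood below the others in the median deviation (-0.97) and in PCNA (501), RRM2 (648), E2F1 (243), POLD1 (997) and RPA1 (1158). R1 was again high at time point 6 for PCNA (2170) and RRM2 (5795) and at time point 7 for RPA1 (2340). Its E2F1 slope of 0.11 log2 per time point lay above those of the other treated lineages.

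Treated R5 was low in the median deviation at time points 7 (-0.34) and 8 (-0.50), in MCM2 at time point 7 (2304) and in E2F1 at time point 8 (568.2), and its POLA2 value at time point 5 was high (286). Treated R3 was high in POLE at time point 4 (3581). Among time-adjusted lineage values on the log2 scale, R3 stood apart in CDT1 (9.85) and RFC3 (9.55), and R4 in RFC4 (9.10). The RFC4 slope of R7 (0.057) stood apart from those of the other treated lineages.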

How the results depend on the processing

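Slopes of the replication genes in treated lineages moved most with the choice of libraries. The count rising was 0 with no filter on low values, without time point 1, and without treated R1 at time point 3 and DMSO R8 at time point 1. The count falling was 0 without time point 1, 3 without treated R1 at time point 1 and 15 without treated R1 at time point 3 and DMSO R9 at time point 2. In these settings 1183, 5256 and 5657 of all genes passed, in either direction. In DMSO lineages the count rising was 1 without the 4 late libraries of R9 and R10 (2769 of all genes passed in either direction). It was also 1 without 8 early and late libraries (3454 of all genes) and with lineage as a replicate block (5619). The count falling was 4 without the 2 early libraries (1897 of all genes) and 1 with the replicate block. Leaving out each lineage gave 0 to 2 rising in treated lineages, 0 to 1 falling in DMSO lineages and 0 to 2 higher at time point 9. The 2 rising were found without treated R5 (6508 of all genes passed in either direction), and 0 without R3 or R4 (3974 and 4551). Without DMSO R8, 1 fell in DMSO lineages (2818 of all genes) and 2 were higher at time point 9 (1325). At time point 10, leaving out DMSO R8 or R10 left 1 DMSO library, so no count is given there. Counts under the other alternatives stayed within 1.5 times. The alternatives without the 2 early libraries, without 8 libraries, without the pair of R1 and R8 and without treated R1 at time point 1 were chosen after seeing the data. The cause of each change was not tested.

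No call changed sign; the reversals were all in values that had not passed. Without time point 1, RRM2 over all time points was -0.029, the treated slopes of CDC6 and E2F1 were 0.025 and 0.028, the DMSO slope of E2F1 was 0.0070, and the slope differences of MCM2 and PCNA were 0.0090 and 0.0097. Without the 2 late treated libraries, the treated slope of CDC6 was 0.0093 and the slope differences of MCM2 and PCNA were 0.013 and 0.0025. Without the 2 early libraries, the treated slope of RRM2 was -0.017, the DMSO slopes of MCM2 and CDC6 were -0.00029 and -0.00096, and the slope differences of MCM2 and PCNA were 0.0087 and 0.0040. Without the 4 late DMSO libraries, DMSO slopes were 0.021 for MCM3, 0.042 for POLA2, 0.074 for PCNA and 0.058 for E2F1, slope differences were -0.0097 for ORC2 and -0.074 for E2F1, and ORC2, MCM2 and CDC6 at time point 8 were -0.020, -0.087 and -0.080, with ORC2 at time point 10 at -0.094. Without 8 libraries, RRM2 over all time points was -0.014, DMSO slopes were 0.0093 for POLA2 and 0.034 for PCNA, slope differences were -0.0078 for ORC2 and -0.018 for E2F1, the time point 8 values were as without the 4 late libraries, ORC2 at time point 10 was -0.044 and the VDC difference of MCM2 was 0.014. Without treated R1 at time point 3 and DMSO R8 at time point 1, the treated slope of RRM2 was -0.017 and the slope difference of E2F1 was -0.012. Without treated R1 at time point 1, the treated slopes of CDC6 and E2F1 were 0.025 and 0.0040 and the slope differences of MCM2 and PCNA were 0.016 and 0.0075. With the replicate block, the treated slope of RRM2 was -0.0028 and the slope difference of MCM2 was 0.0023. Leaving out each lineage turned some signs. Over all time points PCNA ran from -0.071 to 0.049. Treated slopes ran from -0.020 to 0.017 for CDC6 and from -0.014 to 0.023 for RRM2. DMSO slopes ran from -0.0025 to 0.033 for MCM2, -0.025 to 0.091 for CDC6, -0.059 to 0.011 for PCNA and -0.0098 to 0.11 for RRM2. Slope differences ran from -0.014 to 0.021 for MCM2, -0.092 to 0.024 for CDC6, -0.037 to 0.032 for PCNA, -0.11 to 0.011 for RRM2 and -0.017 to 0.045 for E2F1. At time point 4, MCM2 ran from -0.056 to 0.089 and E2F1 from -0.14 to 0.28. At time point 5, MCM2 ran from -0.052 to 0.11, CDC6 from -0.28 to 0.090 and E2F1 from -0.29 to 0.026. At time point 6, MCM2 ran from -0.14 to 0.14, CDC6 from -0.32 to 0.051, PCNA from -0.37 to 0.057 and RRM2 from -0.39 to 0.087. At time point 7, MCM2 ran from -0.058 to 0.077, CDC6 from -0.19 to 0.034 and PCNA from -0.17 to 0.049. At time point 8, ORC2 ran from -0.020 to 0.22, MCM2 from -0.087 to 0.16, CDC6 from -0.080 to 0.16, PCNA from -0.28 to 0.075 and RRM2 from -0.17 to 0.088. At time point 9, PCNA ran from -0.0069 to 0.25 and RRM2 from -0.059 to 0.18, and at time point 10 ORC2 ran from -0.094 to 0.54. Depth is unknown, so no counting error could be given.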

Other observations

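The untreated parental library, which enters no comparison, had its largest excess over the culture means in RRM2 (0.90 log2), CLSPN (0.85) and TYMS (0.85), and its smallest in ORC2 (0.097). Summed over the 43 replication genes it reached 72420, within the range of the culture libraries. Its values were 5704 for MCM4, 3414 for MCM2, 2024 for PCNA, 1394 for CDC6, 986 for CDT1 and 299 for POLA2.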
